A study of Mus musculus with 19 samples.

Results

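HOX genes encode homeodomain transcription factors that give cells their address along the head-to-tail axis of the embryo. In the mouse they lie in 4 clusters, Hoxa, Hoxb, Hoxc and Hoxd, and genes at matching places in different clusters share a number and are called paralogs. Their order in a cluster follows their order along the body: genes with low numbers act from the hindbrain downward, and genes with high numbers act in the lower trunk, the limbs and the tail. In cells that do not use them, HOX clusters are textbook targets of Polycomb repressive complex 1 (PRC1), which contains the ubiquitin ligase Ring1B and, in its canonical form, a chromobox protein such as Cbx7 that binds methylated histone H3. Symbols made of Hox, a cluster letter and a number picked out 39 of the 24016 genes of the deposited RNA table, namely 11 Hoxa, 10 Hoxb, 9 Hoxc and 9 Hoxd genes.

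The RNA came from 5 libraries. E14 embryonic stem cells (ESC), cultured over a feeder layer of irradiated mouse embryonic fibroblasts, had received a lentiviral non-target hairpin (the control, 1 library) or a hairpin against Nup153, a nucleoporin of the nuclear pore's basket (hairpins #2 and #4, 1 library each). All 3 ESC libraries followed at least 4 days of puromycin selection. Neural progenitors (NeuP, 2 libraries) were derived from ESC through embryoid bodies and Noggin and kept in FGF2 and EGF, with no hairpin and no line given in their labels. Peak lists, from 1 ChIP library each, covered Ring1B in NeuP and in ESC with each of the 3 hairpins, Cbx7 in control ESC, and Oct4 in control and hairpin #2 ESC. The ESC of these ChIP libraries had likewise been through at least 4 days of puromycin selection. Lists for Nup153 and Oct4 came from DamID in ESC, from a set of 6 libraries for Nup153, Oct4 and GFP. In DamID the protein is fused to a bacterial methylase, driven here from a vector with a heat shock promoter, that marks the DNA it touches.

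RNA libraries held 24.3 to 32.2 M fragments (1 M is 1000000), as recovered from the step size of the deposited FPKM values (fragments per kilobase of transcript per M fragments). Nup153 itself stood at 39.4 FPKM in the control, 20.9 and 17.4 FPKM with hairpins #2 and #4, and 12.8 and 29.1 FPKM in the NeuP libraries. In limma, which called 18.3% of all tested genes higher and 24.9% lower in NeuP, 7 of 8 pluripotency markers fell, and 6 of 8 neural progenitor markers rose. Most of the former reached the 1 FPKM needed for the test in ESC alone, and some of the latter in NeuP alone. These counts therefore describe the markers without supporting anything. Markers of the feeder fibroblasts moved too, with a summed level of 12.3 to 17.4 FPKM over 14 genes in the ESC libraries and of 85.7 and 144 FPKM in NeuP. Of 13 tested, 5 rose and 1 fell, beside 18.3% and 24.9% of all genes. Most of the 13 reached 1 FPKM in NeuP alone, and Col1a2 in ESC alone, so these counts only describe them. None of the 14 was at 0 in both NeuP libraries, and Lum was at 0 in all 3 ESC libraries. The part that fibroblast RNA plays in the HOX values was not tested. In these bulk samples, fewer cells of a type and less RNA per cell cannot be told apart.

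Promoter sequences of 22 of the 39 genes were found in the RefSeq set of build GRCm38.p6, as 24 entries that end at the annotated start. HOX promoters are rich in CpG, the dinucleotide that unmethylated CpG islands and Polycomb targets share, and the median count was 12.5 CpG in the 250 bases before the start (range 2 to 35), against 6 over all 32851 promoters (quartiles 2 and 16). The stretches of 4 Hoxa genes are printed 5′ to 3′ in the direction of the gene with each CpG in capitals, because the results turn on these genes: Hoxa2 rose in NeuP under a Ring1B peak, Hoxa5 rose with no Ring1B peak in NeuP, and Hoxa9 and Hoxa13 lay in the stretch that stayed under Ring1B peaks. All 4 are on the minus strand of GRCm38.p6, at chr6:52164832-52165081, chr6:52204588-52204837, chr6:52227371-52227620 and chr6:52260881-52261130. They hold 6, 28, 3 and 35 CpG, in that order, so neither the genes that rose nor the genes that did not had one CpG density. The motif CG was found in 92.1% of all promoters of this length.
Hoxa2: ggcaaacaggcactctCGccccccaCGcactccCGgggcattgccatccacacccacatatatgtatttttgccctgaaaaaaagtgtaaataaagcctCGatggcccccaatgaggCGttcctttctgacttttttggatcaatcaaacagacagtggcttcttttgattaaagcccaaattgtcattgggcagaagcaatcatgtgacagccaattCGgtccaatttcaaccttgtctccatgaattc
Hoxa5: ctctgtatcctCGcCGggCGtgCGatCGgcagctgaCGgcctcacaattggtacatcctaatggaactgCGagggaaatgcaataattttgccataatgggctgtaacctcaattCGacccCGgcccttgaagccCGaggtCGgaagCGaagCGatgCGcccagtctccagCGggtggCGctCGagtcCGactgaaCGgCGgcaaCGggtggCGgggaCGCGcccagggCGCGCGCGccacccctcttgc
Hoxa9: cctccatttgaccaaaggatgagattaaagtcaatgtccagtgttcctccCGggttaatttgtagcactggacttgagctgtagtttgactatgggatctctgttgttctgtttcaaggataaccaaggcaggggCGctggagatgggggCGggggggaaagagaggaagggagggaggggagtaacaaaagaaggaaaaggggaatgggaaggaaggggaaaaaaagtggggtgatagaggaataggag
Hoxa13: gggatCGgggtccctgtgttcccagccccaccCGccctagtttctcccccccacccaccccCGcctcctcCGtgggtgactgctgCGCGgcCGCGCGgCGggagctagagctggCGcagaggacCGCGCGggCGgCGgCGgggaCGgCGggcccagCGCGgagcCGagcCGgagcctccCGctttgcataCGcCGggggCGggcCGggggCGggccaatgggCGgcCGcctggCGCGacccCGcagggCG

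In control ESC the HOX genes were nearly silent. Their median was 0.182 FPKM, and 6 of 39 (15.4%) reached 1 FPKM, against 48.7% of all genes in the same library. RNA was still detected widely: 35 of 39 members had at least 1 fragment in each of the 3 ESC libraries, and each member had 1 in at least 1 of them. Among the 6, Hoxc13, which acts in hair and nails, had 3.60 FPKM. Hoxb13 had 1.45 FPKM, Hoxa5 1.26 FPKM, Hoxb9 1.23 FPKM and Hoxa4 1.01 FPKM. The order of these last 4 is not firm, since hairpin #4 ESC had 1.74, 1.15, 1.62 and 0.772 FPKM for them.

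**Figure D1:**
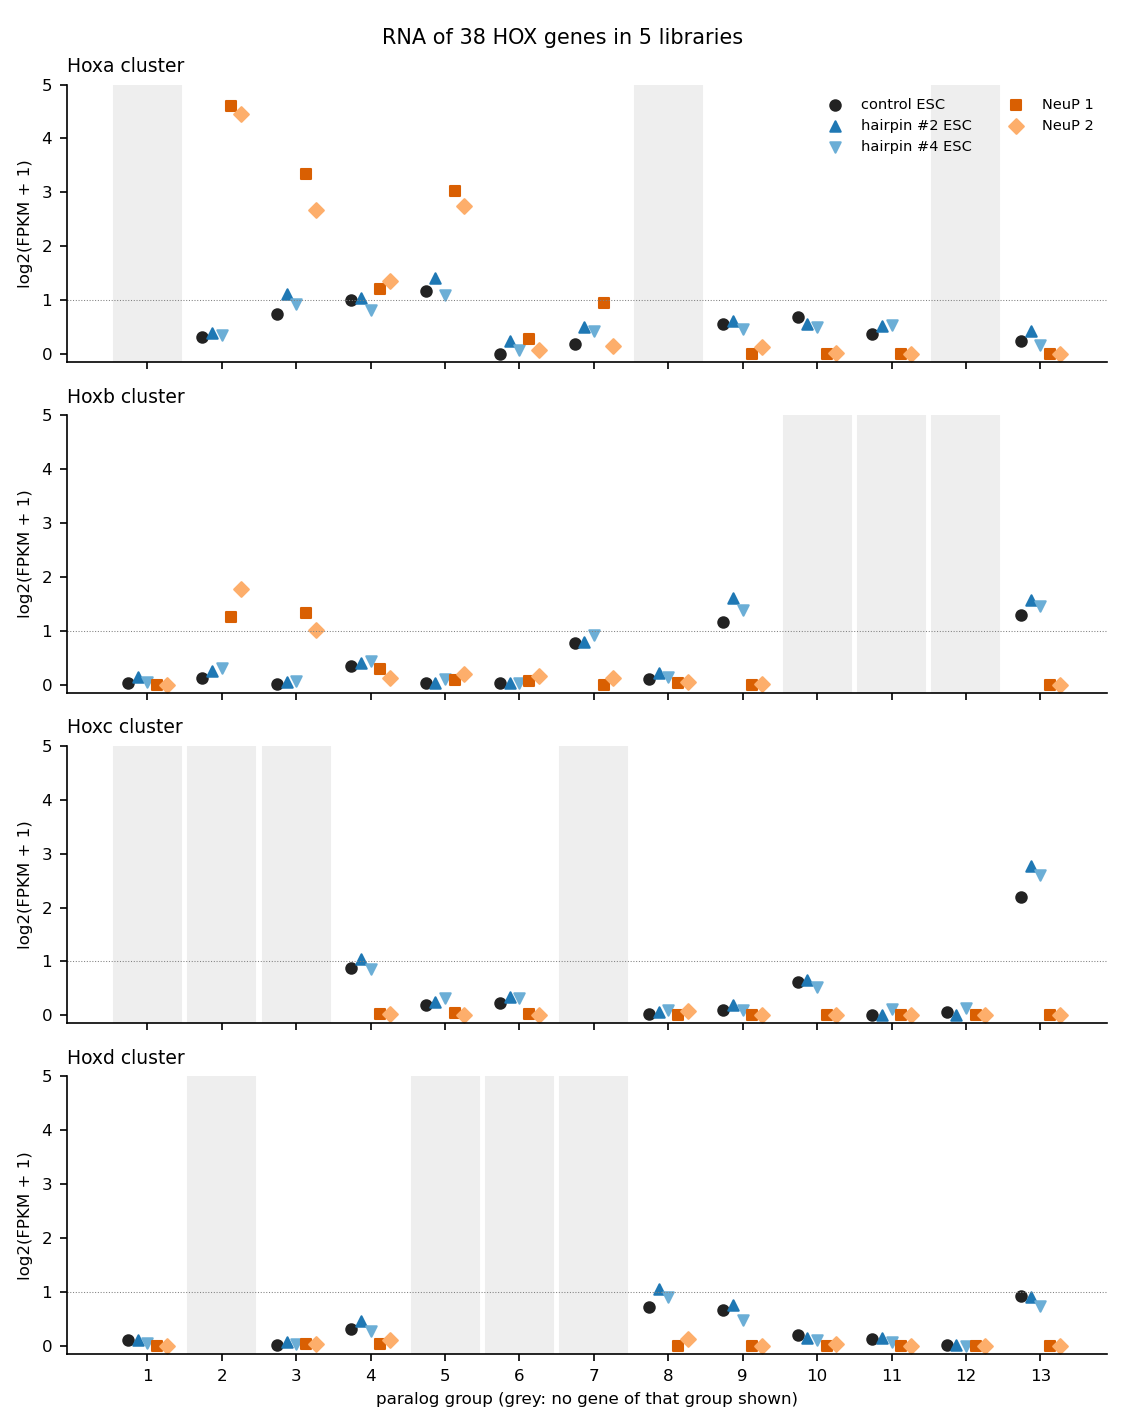
Expression of 38 HOX genes as log2(FPKM + 1) on the vertical axis, by paralog group on the horizontal axis, with 1 panel per cluster and 1 symbol per library; the dotted line marks 1 on this scale. NeuP symbols stand above the ESC symbols for Hoxa2, Hoxa3, Hoxa5, Hoxb2 and Hoxb3, and lie at or near 0 for the genes numbered 9 and higher.

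NeuP cells carried a HOX profile of low-numbered genes from 2 clusters. RNA from Hoxa2, Hoxa3 and Hoxa5 and from Hoxb2 and Hoxb3 rose, while Hoxb9, Hoxb13, Hoxc4, Hoxc13 and Hoxd8 fell. Summed over paralogs 1 to 5 (15 genes), fragments per M went from 22.1 in control ESC, 27.6 with hairpin #2 and 21.0 with hairpin #4 to 103 and 91.7 in the NeuP libraries. Summed over paralogs 6 to 13 (24 genes), they went from 25.7, 36.7 and 30.3 to 2.15 and 1.32. The ESC and NeuP libraries did not overlap in either sum. By cluster, Hoxa went from 22.2, 27.2 and 20.3 fragments per M in ESC to 97.1 and 84.1 in NeuP, and Hoxb from 7.33, 11.1 and 9.77 to 8.02 and 8.24. Hoxc stood at 12.3, 18.7 and 16.3 against 0.155 and 0.165, and Hoxd at 6.03, 7.35 and 4.98 against 0.155 and 0.494. Only the Hoxb sums overlapped between ESC and NeuP.

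Both NeuP libraries lay above all 3 ESC libraries for 8 members (21.7% of all genes did so) and below them for 23 members (34.7% of all genes). The share of members above did not exceed that of all genes. Hoxa2, Hoxa3, Hoxa4, Hoxa5, Hoxb2, Hoxb3 and Hoxb6 were among those above. Some members were placed by very few fragments. Hoxb6, above, had 1, 1 and 1 in the control and hairpin #2 and #4 libraries and 2 and 4 in NeuP. Hoxb1 and Hoxd1, below, had 1, 7 and 2 and 4, 5 and 2 in ESC against 0 in NeuP. Of paralogs 1 to 5, 7 of 15 lay above and 6 below; of paralogs 6 to 13, 1 of 24 lay above and 17 below. Every Hoxa gene from Hoxa9 to Hoxa13 was among those below, and so were 7 of 9 Hoxd genes and 6 of 9 Hoxc genes.

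Only 12 members had 1 FPKM in any library and so entered the test. Of these, 3 passed through NeuP alone (Hoxa2, Hoxb2 and Hoxb3) and 5 through ESC alone (Hoxb9, Hoxb13, Hoxc4, Hoxc13 and Hoxd8), so that they could hardly be alike in both, and their counts describe them without supporting anything. With limma-trend on log2(FPKM + 1), adjusted by Benjamini-Hochberg over 13750 genes, 10 of the 12 were called in NeuP against control ESC, beside 43.2% of all genes tested: 5 were higher (18.3% of all genes) and 5 lower (24.9%). The control had no replicate, and p-values measure only the spread between these libraries, whose culture of origin is not given. When either hairpin library was left out, 5 of the 12 were still called, with 13.3% of all genes: Hoxa2, Hoxb9, Hoxb13, Hoxc4 and Hoxc13 passed, and Hoxa3, Hoxa5, Hoxb2, Hoxb3 and Hoxd8 did not.

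Hoxa2, which patterns the hindbrain and is the most anterior HOX gene there, had the largest change of the 12 tested members on the log2(FPKM + 1) scale. It stood at 0.245 FPKM in the control, 0.308 and 0.288 FPKM with hairpins #2 and #4, and 23.1 and 20.8 FPKM in NeuP replicates 1 and 2. The groups were far apart and the replicates close, with a log2 change in FPKM + 1 of 4.20 ± 0.17 (SE; adjusted p = 0.00238). In fragments this was 11, 17 and 13 in ESC against 1318 and 895 in NeuP. Hoxa2 was the highest HOX gene in both NeuP libraries.

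Hoxa3 and Hoxa5, which act in the caudal hindbrain, neck and upper trunk, rose less. Hoxa3 had 0.684, 1.16 and 0.897 FPKM in the control and hairpin #2 and #4 libraries and 9.18 and 5.41 FPKM in NeuP, a log2 change of 2.26 ± 0.35 (limma adjusted p = 0.0148). Hoxa5 had 1.26, 1.66 and 1.15 FPKM in ESC and 7.16 and 5.68 FPKM in NeuP, a log2 change of 1.70 ± 0.24 (limma adjusted p = 0.0127). Every NeuP value exceeded every ESC value for both genes, and replicate 1 was the higher NeuP library for both. The deposited Hoxa3 transcript is a long one that begins between Hoxa6 and Hoxa7 and runs over Hoxa4, Hoxa5 and Hoxa6 on the same strand, and how reads shared between them were counted is not given, so these values are uncertain.

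Hoxb2 and Hoxb3, the hindbrain paralogs of the Hoxb cluster, started from almost no RNA. Hoxb2 had 0.0970, 0.197 and 0.241 FPKM in ESC and 1.38 and 2.41 FPKM in NeuP, a log2 change of 1.38 ± 0.27 (limma adjusted p = 0.0256). Hoxb3 had 0.0120, 0.0390 and 0.0470 FPKM in ESC and 1.503 and 1.021 FPKM in NeuP, a log2 change of 1.15 ± 0.19 (limma adjusted p = 0.0175). The added 1 in log2(FPKM + 1) shrinks changes of genes this low: in fragments, Hoxb3 counted 1, 4 and 4 in ESC against 160 and 82 in NeuP. The groups did not overlap for either gene.

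Other low-numbered genes behaved differently. Hoxa4 had 1.01, 1.05 and 0.772 FPKM in ESC and 1.33 and 1.57 FPKM in NeuP, with a log2 change of 0.28 ± 0.18 that did not pass (limma adjusted p = 0.268). Hoxa4 therefore lay low between 2 genes of its cluster that rose, although its ESC and NeuP values did not overlap. Hoxb1, a marker of a single hindbrain segment, had 1, 7 and 2 fragments in ESC and 0 in both NeuP libraries. Hoxb4 had 0.277, 0.326 and 0.352 FPKM in ESC and 0.218 and 0.0960 FPKM in NeuP.

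Genes of the posterior body lost their ESC RNA. Hoxc13 had 3.60, 5.85 and 5.09 FPKM in the control and hairpin #2 and #4 libraries, from 222, 443 and 315 fragments, and 0 fragments in both NeuP libraries. Set against the 3 fragments that a count of 0 still allows over both NeuP libraries, it was at least 165-fold lower than in control ESC (log2 change of -2.20 ± 0.16 on the FPKM + 1 scale, limma adjusted p = 0.00393). Hoxb13 had 1.45, 1.99 and 1.74 FPKM in ESC and 0 in NeuP, at least 35.6-fold lower (limma adjusted p = 0.00812). Hoxb9 had 1.23, 2.06 and 1.62 FPKM in ESC and 0 and 0.0150 FPKM in NeuP, the latter from 1 fragment (log2 change of -1.15 ± 0.17, limma adjusted p = 0.0139). No NeuP library reached any ESC library for these 3 genes. These floors, and the later ones, cover only the counting error of the NeuP zeros. They take the control count as exact and leave out spread between cultures.

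The other called genes on this side were weaker. Hoxc4 had 0.836, 1.05 and 0.813 FPKM in ESC and 1 fragment in each NeuP library (log2 change of -0.85 ± 0.15, limma adjusted p = 0.0214). Hoxd8 had 0.660, 1.08 and 0.868 FPKM in ESC and 0 and 0.0990 FPKM in NeuP, with a change of -0.66 ± 0.16 and the largest adjusted p of the 10 called genes (0.041). Both lost the call under quantile normalization, with an adjusted p of 0.0578 for Hoxc4 and 0.296 for Hoxd8.

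Below 1 FPKM the same side held many more genes. In an analysis added after the data were seen, voom in limma on the recovered fragments of genes with at least 10 in at least 1 library tested 27 members and called 18 (44.9% of 15948 genes); 5 were higher in NeuP (17.7%) and 13 lower (27.2%). The 5 were the genes called above. The 13 were Hoxa10, Hoxa11, Hoxa13, Hoxb7, Hoxb9, Hoxb13, Hoxc4, Hoxc6, Hoxc10, Hoxc13, Hoxd9, Hoxd11 and Hoxd13. All 13 had fewer than 10 fragments in both NeuP libraries and so passed this filter through ESC alone, while Hoxb3 passed it through NeuP alone. Such genes could hardly be alike in both, and these counts describe them without supporting anything. In NeuP, 14 members had no fragment in either library, a count for which the share of all genes was not taken. Of the 14, 6 had at least 10 fragments in control ESC, while Hoxc11, Hoxc12 and Hoxd12 had at most 2 in any ESC library. Among the 6, Hoxd13, which patterns digits and the genital bud, had 57 fragments in control ESC and was at least 42.3-fold lower in NeuP. Hoxd9 with 31, Hoxc10 with 26 and Hoxa11 with 17 control fragments were at least 23.0-fold, 19.3-fold and 12.6-fold lower.

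Between the rising and the silent Hoxa genes, Hoxa7 set the NeuP libraries apart from each other. Hoxa7 had 0.142, 0.412 and 0.343 FPKM in ESC, 0.942 FPKM in NeuP replicate 1 and 0.106 FPKM in replicate 2, from 59 and 5 fragments. One NeuP library was thus above every ESC library. The other was below them all, but only by 5 fragments against 7 in the control. Hoxa6 had 0, 4 and 1 fragments in ESC and 5 and 1 in NeuP, too few to tell the libraries apart. The next gene, Hoxa9, had 0 fragments in replicate 1 and 7 in replicate 2. Hoxb4 to Hoxb8, the corresponding genes of the Hoxb cluster, stayed at or under 0.218 FPKM in both NeuP libraries.

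TALE homeodomain proteins of the Pbx, Meis and Pknox families bind DNA together with HOX proteins. All 9 genes were tested, 5 rose in NeuP (18.3% of all genes did) and 2 fell (24.9%). Meis1 had 0.794, 1.14 and 1.07 FPKM in ESC and 36.5 and 30.4 FPKM in NeuP (log2 change of 4.26 ± 0.20, limma adjusted p = 0.00242). Meis2, Meis3 and Pknox2 rose by 3.20, 2.95 and 2.88 on the log2 scale, and Pbx2 and Pbx4 changed by -1.38 and -1.80.

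Of 12 regulators and even-skipped neighbours of the clusters 7 were tested, and 2 rose, beside 18.3% of all genes. Gdf11, a ligand that shifts HOX expression toward the tail, had 0.480, 0.888 and 0.695 FPKM in ESC and 6.37 and 7.07 FPKM in NeuP (limma adjusted p = 0.00382). Kmt2a, a histone H3 methyltransferase that maintains HOX expression, had 3.85, 6.07 and 5.55 FPKM in ESC and 13.3 and 11.2 FPKM in NeuP (limma adjusted p = 0.0123). Both were above every ESC library in both NeuP libraries. Cdx1 and Cdx2, activators of trunk HOX genes, had 0.565 and 0.663 FPKM in control ESC and 0 in NeuP. Cofactors and regulators together gave 9 called genes of 16 tested, 2 when either hairpin library was left out, 14 without NeuP replicate 1 and 15 without NeuP replicate 2. The share of all genes called moved likewise, from 43.2% to 13.3% without either hairpin library, 77.2% without NeuP replicate 1 and 81.8% without NeuP replicate 2.

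Markers of brain levels gave the surroundings of this profile. Over all genes tested 18.3% rose and 24.9% fell, to be set beside each list here. Of 8 hindbrain and spinal cord genes 5 were tested and 4 rose. Among them Egr2, a direct activator of Hoxa2 and Hoxb2 in the hindbrain, went from 0.799, 2.04 and 1.47 FPKM in ESC to 26.4 and 22.0 FPKM in NeuP, and Pax3 and Irx3 rose as well. The remaining tested gene, Pax7, had 2, 1 and 3 fragments in ESC and 220 and 6 in NeuP, and was not called. Pax3 and Pax7, like Gdf11 above, passed the filter through NeuP alone. The untested genes did not rise in this way. Nkx6-2 had 21, 29 and 11 fragments in ESC and 13 and 4 in NeuP. Nkx6-1 had 0 in both NeuP libraries, and Dbx1 had 1 and 7. Of 8 midbrain and isthmus genes 3 were tested and all 3 rose (En1, En2 and Gbx2), of which En1 and En2 passed the filter through NeuP alone. The other 5 stayed under 1 FPKM: Pax8 went from 52, 38 and 39 fragments in ESC to 0 in both NeuP libraries, at least 38.6-fold lower than in the control, and Pax2, Pax5, Wnt1 and Fgf8 had at most 9 fragments in any library. Of 7 forebrain genes 3 were tested, Lhx2 rose and Otx2 fell to 0 FPKM. Of 8 mesoderm genes 2 were tested and Eomes fell. Otx2 and Eomes passed the filter through ESC alone.

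In the knockdown, no HOX gene was called. The same fit did not call Nup153 either, with a log2 change of -1.01 ± 0.55 (limma adjusted p = 0.897). A lack of calls therefore does not show that the HOX genes were unchanged. Of the 12 tested members 0 passed in limma, as did 0% of the 13750 genes, and 1 member had an unadjusted p under 0.05 (814 of all genes did). That member was Hoxc13, with 3.60 FPKM in the control against 5.85 and 5.09 FPKM (log2 change of 0.49 ± 0.16, limma adjusted p = 0.825). Both hairpin libraries stood above the 1 control library for Hoxc13, as they did for Hoxb9, which had 1.23 FPKM in the control and 2.06 and 1.62 FPKM with the hairpins. Voom on the 27 members with at least 10 fragments in a library called 0 and gave 0 at an unadjusted p under 0.05. Without a filter on low values limma called 1 of 39, Hoxa11, which had 0.293 FPKM in the control and 0.436 and 0.447 FPKM with hairpins #2 and #4 (adjusted p = 0.0462), beside 0.958% of 24016 genes. That call rests on an SE of 0.0075 for a log2 change of 0.16, and voom did not call Hoxa11 (adjusted p = 0.999994).

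The hairpins were also set against the control one at a time, each with that same single library. With hairpin #2 all 12 tested members were above the control, with a median log2 difference of 0.20, where 62.4% of all genes tested were above it with a median of 0.08. With hairpin #4, 8 of 12 were above it, with a median of 0.11, beside 62.5% of all genes with a median of 0.09. Quantile normalization, which moved the median change of all genes in the knockdown from 0.08 to 0.00176, left 9 of 12 above the control with hairpin #2 (Hoxa2, Hoxa4 and Hoxc4 fell below it) and 4 of 12 with hairpin #4. Of all genes tested, 50.0% with hairpin #2 and 50.4% with hairpin #4 were then above the control. By cluster, both hairpin libraries were above the control for Hoxc, with 12.3 fragments per M in the control and 18.7 and 16.3 with hairpins #2 and #4, and for Hoxb, with 7.33 against 11.1 and 9.77. Hoxc13 alone made up 222 of the 312 Hoxc fragments in the control, 443 of 582 with hairpin #2 and 315 of 415 with hairpin #4. Feeder fibroblast markers summed to 12.3, 17.4 and 16.4 FPKM in the same 3 libraries, and their part in these differences was not tested.

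In ESC chromatin the HOX clusters were densely covered by peaks of PRC1 subunits. A Cbx7 peak lay within 2 kb of the transcript start of 38 of 39 members, against 13.2% of all 23951 transcripts with a usable start. The single exception was Hoxc13, whose nearest Cbx7 peak was 2.04 kb away and whose RNA stood at 3.60 FPKM in control ESC. Ring1B peaks lay at 25 members in control ESC (8.12% of all transcripts), at 26 with hairpin #4 (9.26%) and at 39 with hairpin #2 (24%). The 3 Ring1B libraries held 4.99, 9.95 and 30.8 M tags, in the same order, so that deeper sequencing and wider Ring1B binding cannot be told apart. The 2 lists nearest in depth, control and hairpin #4, differed at 7 genes.

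**Figure D2:**
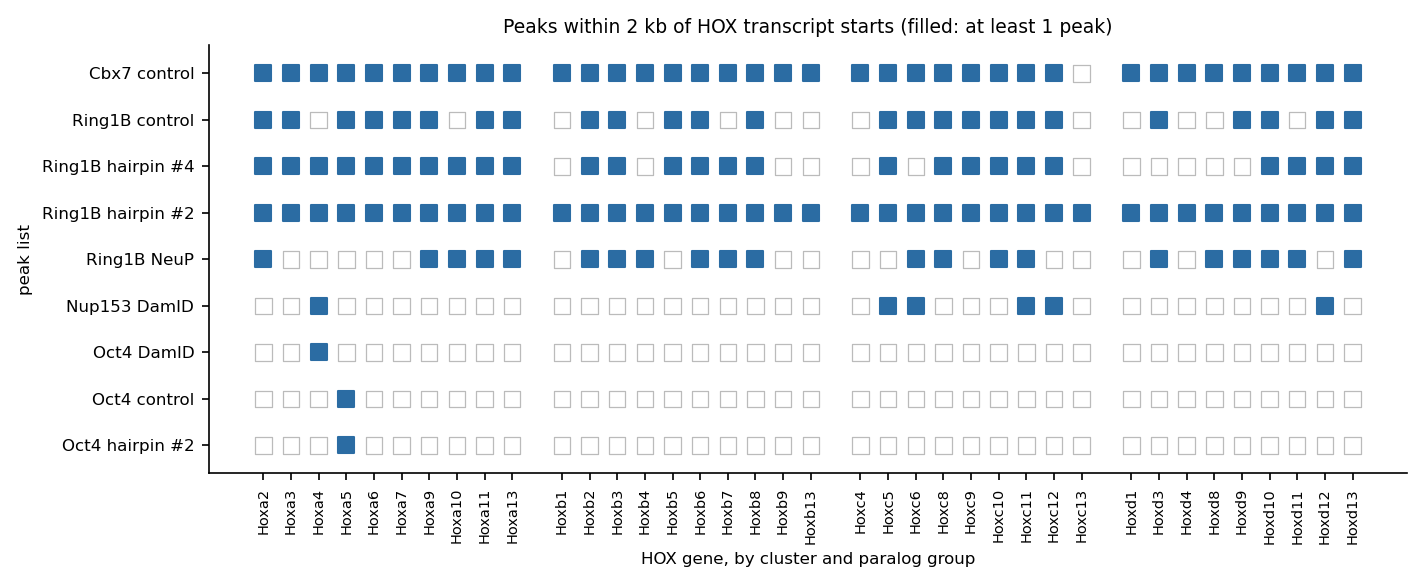
Presence of a peak within 2 kb of each HOX transcript start, with 38 genes on the horizontal axis and the 9 peak lists on the vertical axis; filled squares hold at least 1 peak and open squares none. Cbx7 is open only at Hoxc13, Ring1B with hairpin #2 is filled at all genes shown, and Ring1B in NeuP is filled at 21.

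Those 7 genes went in both directions. Hoxa4, Hoxa10, Hoxb7 and Hoxd11 had a Ring1B peak with hairpin #4 and none in the control, and Hoxc6, Hoxd3 and Hoxd9 the reverse. Their RNA did not go with the peaks in 1 direction: Hoxa10 had 0.603 FPKM in the control and 0.418 FPKM with hairpin #4, Hoxb7 0.717 and 0.90 FPKM, and Hoxd9 0.583 and 0.393 FPKM. Another 10 genes had a peak with hairpin #2 and in neither of the other 2 ESC lists. They include 4 of the 6 genes at 1 FPKM or more in control ESC. They also include all 5 genes that limma-trend called lower in NeuP, which entered that test through their ESC RNA alone, but 4 of the 13 that voom called lower (Hoxb9, Hoxb13, Hoxc4 and Hoxc13). The 13 had likewise entered the voom test through ESC alone.

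Peaks joined into long domains over the middle of the clusters. Cbx7 peaks covered 61.2% of the 492 kb that the 4 clusters span, against 0.658% of the chromosomes, and 77.7% of Hoxa, 74.2% of Hoxd, 66.1% of Hoxc and 40.7% of Hoxb. The widest Cbx7 peak of the whole list, 36.5 kb at mm9 chr6:52154624-52191128, holds the starts of Hoxa3, Hoxa6, Hoxa7, Hoxa9 and Hoxa10. The second widest, 27.2 kb at chr11:96139988-96167171, holds those of Hoxb5 to Hoxb8. In Hoxb, only 3.80% of the 77.0 kb between Hoxb13 and Hoxb9 was covered.

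**Figure D3:**
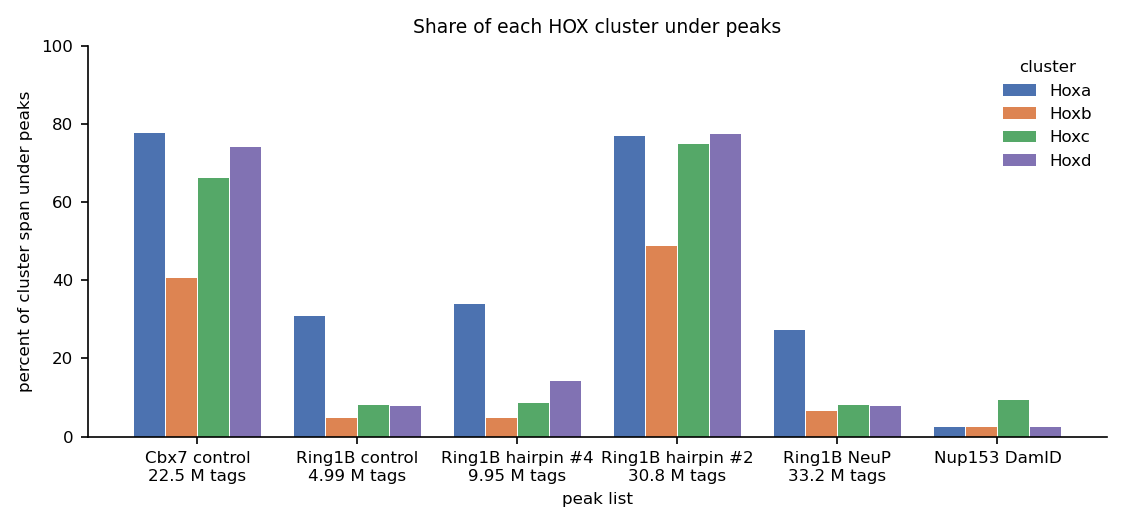
Percent of the span of each HOX cluster that lies under peaks (vertical axis, from 0 to 100), as 1 bar per cluster for 6 peak lists, with the tags of each ChIP library in M beneath its name. Cbx7 and Ring1B with hairpin #2 cover 40.7% to 77.7% of each cluster, and the other Ring1B lists cover 27.3% to 33.9% of Hoxa and at most 14.2% of each other cluster.

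Ring1B coverage split the lists in the same way as the promoters did. Ring1B peaks covered 11.8% of the clusters in control ESC, 13.8% with hairpin #4 and 66.5% with hairpin #2, against 0.377%, 0.376% and 0.792% of the chromosomes. With hairpin #2 the 3 widest peaks of the whole list lay in HOX clusters: 58.3 kb over Hoxb4 to Hoxb8, 39.7 kb over Hoxa5 to Hoxa10 and 23.9 kb over Hoxc10 and Hoxc11. With hairpin #4 the widest peak of the list, 8.26 kb, lay at Hoxa7. In control ESC a 5.81 kb peak between Hoxa9 and Hoxa10 was the third widest. In both shallower lists Hoxa was the most covered cluster, with 30.8% in the control and 33.9% with hairpin #4, and Hoxb the least, with 4.82% and 4.79%. The Hoxb span includes the 77.0 kb between Hoxb13 and Hoxb9, which was covered to 1.73% and 0.816% in these lists.

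In NeuP, Ring1B peaks lay at 21 of 39 HOX starts (10.5% of all transcripts) and covered 11.6% of the clusters, from a library of 33.2 M tags. That depth was close to the 30.8 M of hairpin #2 ESC, which had peaks at 39 starts and covered 66.5%; each is 1 library, and the NeuP list was called against an IgG library from ESC. The cluster shares in NeuP were 27.3% for Hoxa, 8.19% for Hoxc, 7.82% for Hoxd and 6.59% for Hoxb. Of the 25 starts with a peak in control ESC, 16 had one in NeuP too. The 9 without were Hoxa3, Hoxa5, Hoxa6, Hoxa7, Hoxb5, Hoxc5, Hoxc9, Hoxc12 and Hoxd12, and all 9 had a peak in both hairpin lists. NeuP peaks at 5 starts had no counterpart in control ESC, namely Hoxa10, Hoxb4, Hoxb7, Hoxd8 and Hoxd11. All 5 had a peak with hairpin #2, and Hoxa10, Hoxb7 and Hoxd11 had one with hairpin #4 as well. The control library held only 4.99 M tags, so depth and binding cannot be told apart at these starts.

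Along Hoxa the NeuP peaks fell on the 2 sides of an empty stretch. No NeuP Ring1B peak lay in the 50.3 kb from mm9 chr6:52125515-52175839, which holds the starts of Hoxa4, Hoxa5, Hoxa6, Hoxa3 and Hoxa7, in that order. The same stretch, chosen here because it is empty in NeuP, was covered by Ring1B peaks to 28.7% in control ESC, 33.1% with hairpin #4 and 65.5% with hairpin #2, and by Cbx7 to 69.9%. Toward Hoxa13 the remaining 35.0 kb was covered to 68.2% in NeuP, more than the 40.6% and 46.7% of the control and hairpin #4 lists and less than the 93.8% of hairpin #2. On the side of Hoxa2 the remaining 20.1 kb was covered to 24.2% in NeuP, beside 19.1%, 13.6% and 75.8%. The control and hairpin #4 libraries were shallower than the NeuP library, so depth and binding cannot be told apart in these shares.

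**Figure D4:**
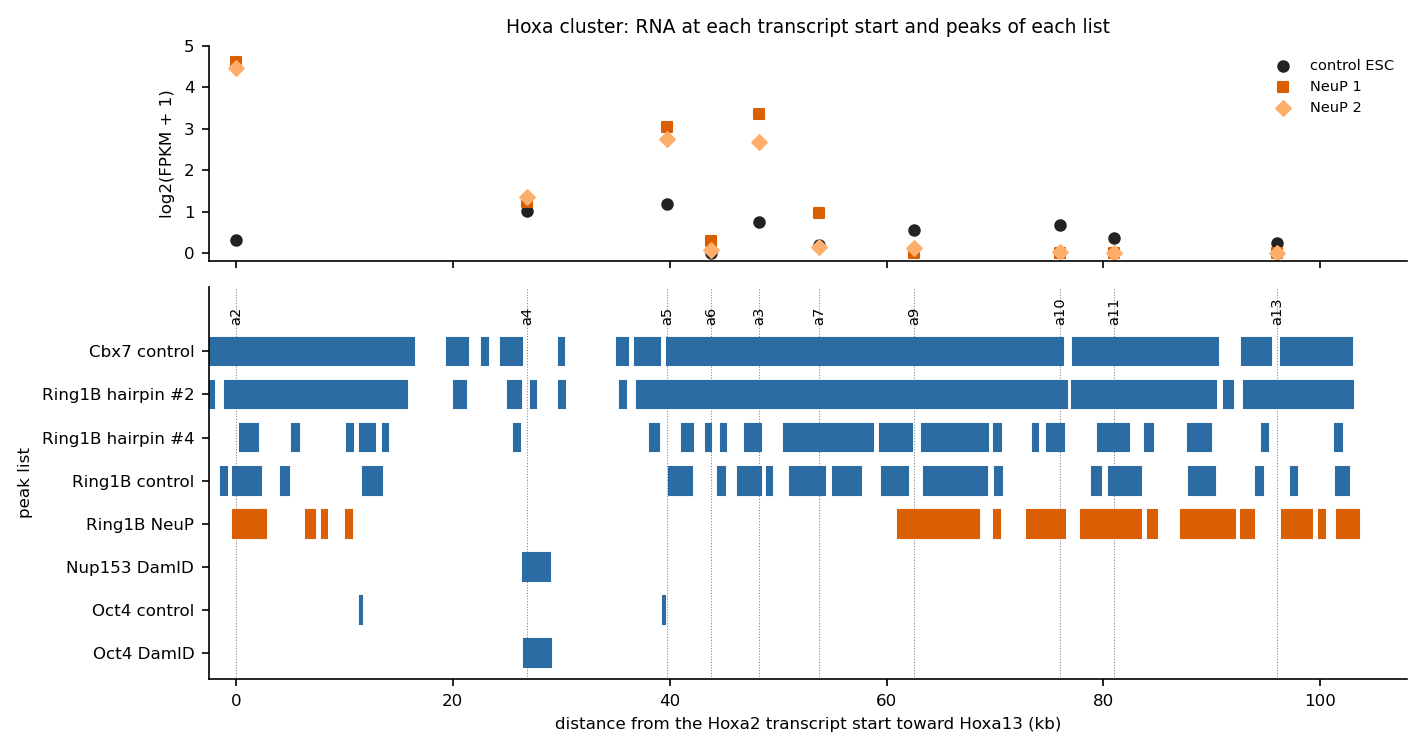
The Hoxa cluster by distance in kb from the Hoxa2 start toward Hoxa13 (horizontal axis): log2(FPKM + 1) at each gene's start in the control and both NeuP libraries above, and the peaks of 8 lists as boxes below, with dotted lines at the gene starts. NeuP Ring1B boxes (orange) are absent from Hoxa4 to Hoxa7 and cover most of the stretch from Hoxa9 to Hoxa13, where NeuP RNA lies at or near 0.

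RNA and Ring1B in NeuP did not divide the rising genes in one way. Hoxa3 and Hoxa5 rose without a NeuP Ring1B peak within 2 kb, from starts that had one in control ESC. For Hoxa3 this holds only for the start of the long deposited transcript. NeuP Ring1B peaks lay inside that transcript toward its other end, for example at mm9 chr6:52121262-52122140. Hoxa2, Hoxb2 and Hoxb3 rose and had a Ring1B peak in NeuP as well as in all 3 ESC lists. Over all members, by the mean of both NeuP libraries, the 21 with a NeuP peak had a median of 0.0260 FPKM (highest 22.0, at Hoxa2) and the 18 without one a median of 0.0178 FPKM (highest 7.30, at Hoxa3). The genes that fell were divided too. Of the 13 that voom called lower, 9 had a Ring1B peak within 2 kb in NeuP and 4 had none, namely Hoxb9, Hoxb13, Hoxc4 and Hoxc13. All 13 had entered that test through ESC alone. Of the 5 that limma-trend called lower, those same 4 had none and Hoxd8 had one. The nearest NeuP peaks were 3.31 kb from Hoxb9, 6.61 kb from Hoxb13, 12.1 kb from Hoxc4 and 6.53 kb from Hoxc13.

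In control ESC, HOX starts with a Ring1B peak had less RNA than those without. The 25 with a peak had a median of 0.142 FPKM and a highest value of 1.26 FPKM (Hoxa5), and the 14 without had a median of 0.689 FPKM. At 1 FPKM or more stood 1 of the 25 and 5 of the 14. Over all transcripts the order was the other way, with medians of 2.56 FPKM with a peak and 0.739 FPKM without. With hairpin #4 the HOX medians were 0.181 FPKM for 26 genes with a peak and 0.393 FPKM for 13 without. Genes of a cluster share domains and are not independent, so these are descriptions.

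Nup153 contacts lay mostly in Hoxc. A DamID peak of Nup153 lay within 2 kb of 6 of 39 HOX starts (5.92% of all transcripts), those of Hoxa4, Hoxc5, Hoxc6, Hoxc11, Hoxc12 and Hoxd12. DamID peaks are broad here, with a median of 2.50 kb, and only the peak at Hoxa4 covered a start itself. They covered 4.05% of the clusters against 0.445% of the chromosomes, with 9.36% of Hoxc and between 2.36% and 2.58% of each other cluster. The 6 genes had 1.01 FPKM (Hoxa4), 0.145 FPKM (Hoxc5), 0.174 FPKM (Hoxc6), 0 FPKM (Hoxc11), 0.0470 FPKM (Hoxc12) and 0.0160 FPKM (Hoxd12) in control ESC. Of these 6, control Ring1B peaks were present at all but Hoxa4, and Cbx7 peaks at all 6.

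Hoxa4 was the only HOX start with a DamID peak of Oct4 (2.81% of all transcripts), and that peak, at mm9 chr6:52141355-52143855, lay almost on top of the Nup153 peak at chr6:52141298-52143798. The knockdown left Hoxa4 at 1.05 and 0.772 FPKM, on either side of the 1.01 FPKM of the control. Oct4 ChIP gave a peak near 1 HOX start, Hoxa5, in control (0.722% of all transcripts) and hairpin #2 ESC (0.706%). The peaks were 177 and 175 bp wide, the control peak at chr6:52154203-52154379, and held no other HOX start within 2 kb.

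Transcripts that are not HOX genes but lie inside the clusters were mostly at 0: of 15, 8 had 0 in all ESC libraries and 11 in both NeuP libraries, and Hotair was at 0 in all 5. Of the 3 tested, 2 fell in NeuP (24.9% of all genes did), both from between the Hoxb genes: Gm53, from 2.70, 6.22 and 5.62 FPKM in ESC to 0 and 0.0670 FPKM, and the deposited entry of Mir196a-1, from 5.85, 13.3 and 7.38 FPKM to 0. Both passed the filter through ESC alone, so their count only describes them. Of 24 flanking transcripts 13 were tested, 1 rose and 4 fell, a share called that does not exceed the 43.2% of all genes. Skap2, beside the Hoxa cluster, rose from 54.3, 48.1 and 46.2 FPKM to 124 and 142 FPKM, while Snx10 fell from 24.0, 20.0 and 22.2 FPKM to 9.08 and 12.5 FPKM. On the Hoxb side Calcoco2 fell from 24.9, 24.5 and 25.3 FPKM to 0.0150 and 0 FPKM, and Ttll6 and Snx11 fell too. Calcoco2 and Ttll6 passed the filter through ESC alone. Neighbours inside and outside together gave 7 called genes, 4 when either hairpin library was left out, 11 without NeuP replicate 1 and 15 without NeuP replicate 2. In the knockdown limma called 0 of them under each setting run.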

How the data were processed

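Per the submitters' processing notes, the authors used CASAVA 1.8.2, STAR 2.2.0c, Bowtie2 2.1.0, HOMER 4.6 and edgeR (no version given) with the mm9 build; libraries were strand-specific and from polyadenylated RNA, with no word on whether counting used strand. The authors deposited RNA as FPKM, with 1 transcript per gene. Per the file headers, the 7 ChIP peak lists came from HOMER with 4-fold enrichment over an IgG library from ESC; the 2 DamID lists have no header, and how their replicates were combined is not stated there. Peak lists hold positions and no height that was used.

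Here, limma 3.58.1 (R 4.3.3) fitted log2(FPKM + 1) with a mean trend (limma-trend) over 13750 genes that reached 1 FPKM in any of 5 libraries, as 3 groups, control (n = 1), knockdown (n = 2 hairpins) and NeuP (n = 2). The fit had 2 residual degrees of freedom plus 1.74 from moderation, tests were two-sided, and the calling threshold was an adjusted p of 0.05. Fragments were recovered from the FPKM steps (100% of 1616 to 1995 low values tested per library were whole within 0.1 fragment), and depths, 24.3 to 32.2 M (1000000), come from them; low genes are therefore limited by counting error. Peaks counted at a start when they shared at least 1 bp with the window from 2 kb before to 2 kb after the mm9 transcript start of the deposited table. Cluster shares used merged peaks over the span from the first to the last HOX base. Scripts were tested on simulated data (Python 3.11.15, numpy 2.4.6, pandas 2.3.3, matplotlib 3.10.9). All 39 members could be named, apart from a gene that is not reported here by itself and 2 genes of other lists likewise; of the cofactors, regulators and neighbours those that passed, and of markers up to 4 a list. Members, gene lists and tests were chosen with earlier results of these data known. Alternatives were pseudocounts, no filter, quantile normalization, voom, leaving out libraries, windows, overlaps and peak widths.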

Additional observations from a re-analysis of the deposited data

How the results depend on the processing

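The count of 10 HOX genes called in NeuP ran from 5 to 10 when each hairpin or NeuP library was left out, and was 18 of 27 with voom on genes with 10 fragments, where more genes were tested. Each tested member with a change given here kept its direction in NeuP under every setting run; calls were lost for Hoxa3, Hoxa5, Hoxb2, Hoxb3, Hoxc4 and Hoxd8 under 1 or more settings. In the knockdown the count of 0 became 1 with no filter, and changes that were never called turned sign: with quantile normalization Hoxa2 went to -0.0652, Hoxa5 to -0.144 and Hoxc4 to -0.132, and with 1 hairpin left out at a time Hoxa4 ran from -0.181 to 0.0313, Hoxa5 from -0.0726 to 0.2343 and Hoxc4 from -0.0182 to 0.1619. Cofactors and regulators called in NeuP (9) ranged from 2 to 15 and neighbours (7) from 4 to 15 with 1 library left out.

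Promoter counts moved most when the start base itself had to lie under a peak: Ring1B went from 25 to 7 in the control, from 26 to 12 with hairpin #4 and from 21 to 4 in NeuP, Nup153 DamID from 6 to 1, and Oct4 ChIP from 1 to 0 in both lists. With peaks of at least 1000 bp these Ring1B counts were 14, 15 and 10, and Oct4 ChIP, whose peaks are narrower, had 0 promoters and 0% of the clusters in both lists; 200 bp shared also gave 0 for Oct4 ChIP. A window of 5 kb gave 2 starts each for Oct4 DamID and both Oct4 ChIP lists. Other causes were not tested.

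No paired analysis was possible because the RNA groups compared share fewer than 2 replicate numbers and the DamID lists merge their replicates. The single control RNA library, single ChIP libraries and their unequal depth limit each comparison.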

Other observations

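Transcripts near Hoxa7 differed between the NeuP libraries in the same direction as Hoxa7 itself, and were picked after their values were seen. Mira, a noncoding transcript beside Hoxa6 and Hoxa7, had 0.396, 0.765 and 1.33 FPKM in the control and hairpin #2 and #4 libraries, 5.31 FPKM in NeuP replicate 1 and 0.620 FPKM in replicate 2. Hoxaas3, an antisense transcript of the same region, had 0.374 and 0.05 FPKM in NeuP. Gmnn, which encodes the replication inhibitor geminin and was listed among HOX regulators, also split the NeuP libraries, with 0.450 and 25.6 FPKM against 55.7, 60.8 and 64.8 FPKM in ESC, and was not called (limma adjusted p = 0.24).

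The DamID methylase marks the sequence GATC, which was present on either strand in the 250 bases before the start in 13 of 24 HOX promoter entries (54.2%) and in 41.9% of all 32851 entries.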
